A study of Mus musculus with 12 samples.

Results

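The 10 genes described here are core genes of the Notch pathway in mouse embryonic stem cells (ESCs): the receptors Notch1, Notch2 and Notch3, the ligands Jag1 and Dll1, the DNA-binding factor Rbpj, the Hes and Hey genes Hes1, Hes6 and Hey1, and the feedback inhibitor Nrarp. They were chosen by name, and all 10 were found among the 25759 genes listed for each of 12 RNA-seq libraries and passed the filter on low counts in every comparison. The libraries came from HATX3 ESCs, a diploid line of haploid-embryo origin in which doxycycline switches on Xist through the nls-rtTA transactivator at Rosa26. Wild-type (WT) cells were the parental line, with replicates numbered 1, 2 and 3. ΔCdk8 cells (Cdk8-/- in the labels) were 3 clones, 8, 11 and 15, derived from the same line by a small CRISPR/Cas9 deletion that includes the Cdk8 start codon. Each of the 6 was profiled in uninduced conditions and after 48 h of Xist expression with doxycycline, which gives 4 groups of 3 libraries. Each ΔCdk8 replicate is thus a single clone, whereas the WT replicates are the parental line. All groups carry the inducible Xist allele and none is a drug control without it, so an effect of the drug and an effect of Xist cannot be told apart here. The question the design asks of these genes is how their RNA levels differ without Cdk8, and whether 48 h of Xist changes them alike in both genotypes.

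Notch signalling runs between touching cells. A Delta or Jagged ligand on one cell opens the receptor on its neighbour, gamma-secretase releases the intracellular domain, and this domain joins RBPJ, which otherwise holds targets silent, to switch on genes such as Hes1, Hey1 and Nrarp. HES1 and HEY1 are bHLH repressors, HES6 is a family member that opposes HES1, and NRARP binds the active complex and limits its life. CDK8, the kinase of the Mediator complex, is known to phosphorylate the Notch intracellular domain, which marks it for the ubiquitin ligase FBXW7. In ESCs, Notch signalling is known for promoting the step towards neural fates.

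The genes lie on 6 chromosomes of the GRCm38 build, none of them the X. Hes1 (ENSMUSG00000022528) spans chr16:30064384-30067796, Hes6 (ENSMUSG00000067071) chr1:91411483-91414038, Hey1 (ENSMUSG00000040289) chr3:8663359-8667256 and Nrarp (ENSMUSG00000078202) chr2:25180758-25183339. Notch1 (ENSMUSG00000026923) spans chr2:26457903-26516663, Notch2 (ENSMUSG00000027878) chr3:98013527-98150361, Notch3 (ENSMUSG00000038146) chr17:32120820-32166880 and Rbpj (ENSMUSG00000039191) chr5:53466152-53657362. The ligands Jag1 (ENSMUSG00000027276) and Dll1 (ENSMUSG00000014773) lie at chr2:137081456-137116644 and chr17:15367354-15376872. In GENCODE M21, annotated genes on the opposite strand overlap Nrarp (Gm38287, over 2559 of its 2582 bases), Notch3 (Gm17276), Dll1 (A930024N18Rik), Notch1 (0610009E02Rik and Gm13568) and Rbpj (Gm10441 and Gm40304). Whether the counting used the strand is not given in the sources used here, so part of the reads of these 5 genes may belong to their partners. Uniquely mapped reads made up at least 97.3% of the gene reads of every member.

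The sequences before the transcript start are shown for the receptor with the clearest change (Notch3), the member with the largest difference between genotypes in uninduced conditions (Hes6), the feedback inhibitor Nrarp and Rbpj itself. They come from RefSeq (GRCm38.p6), which held windows for 8 of the 10 members, and were read 5′ to 3′ on the strand of the gene, ending at the base before the start. For Hes6, the window shown precedes the start of its protein-coding transcript Hes6-201, which lies inside the gene span, and the other Hes6 window, at chr1:91414039-91414288 before the outer start, is not shown. The windows lie at chr17:32166891-32167140 for Notch3 and chr1:91413223-91413472 for Hes6, both on the minus strand, and at chr2:25180508-25180757 for Nrarp on the plus strand. For Rbpj, chr5:53590096-53590213 on the plus strand is shown, leaving out the 132 bases next to the start, where another transcript's leader is annotated. Capitals mark the core of the sequence that RBPJ is known to bind, searched as TGGGAA on both strands (TTCCCA when read on the other).
Notch3: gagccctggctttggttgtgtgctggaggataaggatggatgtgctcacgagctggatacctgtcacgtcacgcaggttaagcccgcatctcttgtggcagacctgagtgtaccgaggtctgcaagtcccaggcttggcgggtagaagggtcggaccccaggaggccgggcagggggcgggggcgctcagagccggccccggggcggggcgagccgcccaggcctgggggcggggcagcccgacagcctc
Hes6: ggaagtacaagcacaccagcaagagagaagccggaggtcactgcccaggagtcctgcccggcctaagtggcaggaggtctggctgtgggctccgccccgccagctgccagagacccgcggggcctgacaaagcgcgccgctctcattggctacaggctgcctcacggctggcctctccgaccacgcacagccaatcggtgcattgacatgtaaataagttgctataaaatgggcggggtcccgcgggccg
Nrarp: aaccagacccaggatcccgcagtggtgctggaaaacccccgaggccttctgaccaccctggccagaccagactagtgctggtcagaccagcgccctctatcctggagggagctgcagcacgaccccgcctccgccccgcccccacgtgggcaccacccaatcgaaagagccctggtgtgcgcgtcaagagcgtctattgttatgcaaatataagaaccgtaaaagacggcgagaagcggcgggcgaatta
Rbpj: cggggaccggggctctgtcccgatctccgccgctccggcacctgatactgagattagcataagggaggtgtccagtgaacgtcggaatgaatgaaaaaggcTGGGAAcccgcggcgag
Of the 11 windows of members, 2 held the core within the 250 bases before the start, both of Rbpj, beside 21.6% of all 32851 windows. By gene, 1 of the 8 members with windows held it. In the Rbpj window shown the core begins 149 bases before the start, and again 65 bases before it in the stretch left out. The other Rbpj window overlaps this one, and its only match is that same second site. No match in Notch3, Hes6 or Nrarp says only that these letters are not in these windows.

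Each library held 22170087 to 60798578 reads assigned to genes. The members drew from 49 reads (Nrarp) to 50831 reads (Rbpj) in a library. Levels are given as TPM, a unit that scales each library to the same total and divides exon reads by exon length so that genes can be compared. The exon TPM of Cdk8 was 64.2, 69.4 and 74.2 in uninduced WT libraries, and 34.4 and 56.8 in uninduced clones 8 and 11. The library labelled clone 15 was above WT, at 85.3. The gene-wide value does not check a deletion at the start codon, and after induction the median X-linked gene was at 1.65, 1.53 and 1.98 times its induced WT mean in clone 8, clone 11 and the library labelled clone 15. Some results, not all, are also given without the libraries labelled clone 15. Pluripotency markers were high throughout, with Pou5f1 at 684 to 1779 TPM and the sum of 9 markers at 3984 to 7662 TPM. The sum of 8 neural progenitor markers was 58.6 to 171 TPM, made up mostly of Tubb3 (48.1 to 157 TPM) and Nes (9.28 to 37.8 TPM), while Sox1 reached 2.79 TPM and Neurog1 and Olig2 stayed under 1 TPM. Within the pluripotency list, Esrrb was at 32.4 to 118 TPM in uninduced and 210 to 247 TPM in induced WT libraries, and at 121 to 176 and 157 to 207 TPM in ΔCdk8 libraries. Pou5f1, Zfp42, Dppa5a and Tdgf1 overlapped between uninduced genotypes. Uninduced Nanog was at 50.2 to 157 TPM in WT and 192 to 403 TPM in ΔCdk8 libraries, and Tfcp2l1 at 10.01 to 39.4 and 76.7 to 102 TPM. Nanog, Tfcp2l1, Sox2, Klf4 and Esrrb, each higher in every uninduced ΔCdk8 than in every uninduced WT library, separated the genotypes. So did the low sums of 5 mesoderm markers (2.66 to 5.08 against 5.59 to 16.0 TPM uninduced, 2.40 to 4.57 against 6.88 to 11.2 TPM induced, mainly Eomes in ΔCdk8 libraries) and of 7 fibroblast markers (9.68 to 18.98 against 21.1 to 31.0 TPM, then 6.02 to 16.3 against 23.0 to 33.5 TPM, mainly Thy1). The sum of 5 trophoblast markers was at 70.3, 11.4 and 11.9 TPM in uninduced WT replicates 1, 2 and 3 and at 88.5, 29.0 and 80.2 TPM in clone 8, clone 11 and the library labelled clone 15. The part of these markers in the results below was not tested. In bulk RNA, fewer cells that express a gene and less RNA per cell cannot be told apart.

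The 10 members differed widely in level. In uninduced WT cells Rbpj was the most abundant, at 134 ± 55.3 TPM (mean ± SD, n = 3), followed by Hes6 at 54.5 ± 16.5 TPM. Hes1 (11.5 ± 2.68 TPM), Notch3 (11.1 ± 2.61), Notch2 (8.39 ± 2.17) and Notch1 (7.23 ± 1.19) came next, and each overlapped its neighbour in this order. Jag1 (5.54 ± 0.234 TPM), Dll1 (3.83 ± 1.60), Hey1 (2.92 ± 0.967) and Nrarp (2.41 ± 0.933) were lowest, again with each overlapping the next. Rbpj, Hes6 and the group from Hes1 to Notch1 did not overlap, and neither did Notch1 and Jag1. In ΔCdk8 cells the order of both Hes genes was turned, with Hes1 at 24.3 ± 2.89 TPM and Hes6 at 22.7 ± 2.93 TPM in uninduced conditions, values that overlap, and at 30.7 ± 8.27 and 18.9 ± 4.38 TPM after induction, values that do not. Hes5, the Notch target best known in neural progenitors, stayed under 1 TPM in all 12 libraries.

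**Figure D1:**
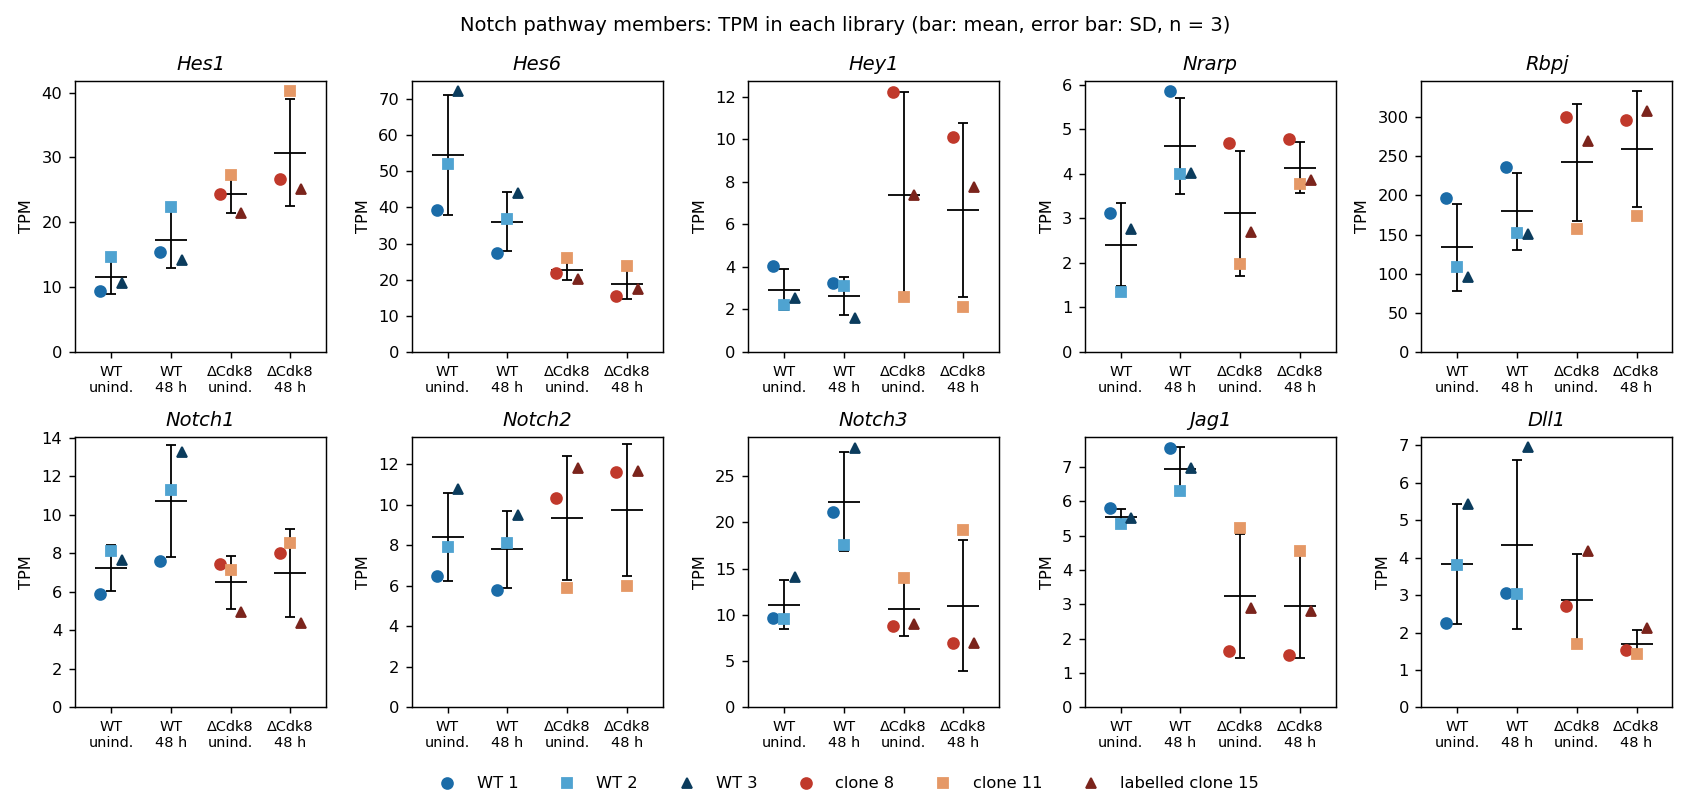
TPM of the 10 members in each library, in 4 groups of 3 (vertical axis from 0, horizontal bars are means and error bars SD). Points of the same shape and colour are 1 WT number or 1 clone. Hes1 was higher and Hes6 lower in every ΔCdk8 library than in the WT libraries of the same condition, and Notch3 in induced WT cells lay between 17.6 and 28.1 TPM, above the 9.52 to 14.1 TPM of uninduced WT cells.

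In uninduced conditions, Hes1 and Hes6 stood apart between genotypes in opposite directions. Hes1 TPM was 9.43, 14.6 and 10.6 in WT replicates 1, 2 and 3, and 24.3, 27.2 and 21.5 in clone 8, clone 11 and the library labelled clone 15. All ΔCdk8 values were above all WT values. The log2 difference was 0.90 ± 0.29 (SE), with an adjusted p of 0.178 in edgeR's quasi-likelihood test and 0.0406 in the DESeq2 Wald test. Leaving out any 1 library gave 0.71 to 1.12 in edgeR (adjusted p = 0.131 to 0.521).

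Hes6 TPM was 39.4, 52.1 and 72.1 in WT replicates 1, 2 and 3, and 21.9, 26.0 and 20.3 in clone 8, clone 11 and the library labelled clone 15. The groups again did not overlap, with the ΔCdk8 libraries below. The log2 difference was -1.41 ± 0.28, with an adjusted p of 0.124 in edgeR and 0.000267 in DESeq2, where Hes6 passed the threshold used throughout (more than a 2-fold difference at an adjusted p under 0.01). Without the library labelled clone 15, it was -1.29 ± 0.32 in edgeR (adjusted p = 0.262), and without clone 11, -1.62 ± 0.29 (adjusted p = 0.0319, in a fit where 11.6% of all genes passed an adjusted p under 0.05). It also passed that rule without WT replicate 1 (adjusted p = 0.0427, beside 2.76% of genes). The reads of Hes6 were unusual in 1 respect: only 0% to 12.01% of its exon reads crossed a junction in any library, against 47.6% to 50.1% over all genes and 28.3% to 44.0% for Hes1. The last and longest of its 4 exons makes up 74.9% of the transcript Hes6-201. The cause of the low share was not tested.

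Across the comparison, edgeR called none of the 10 members at the threshold, as it called 0% of 14646 genes tested. DESeq2 called 1 member, Hes6, and 2.64% of all genes. At an adjusted p under 0.05 with no minimum fold change, edgeR gave 0 members and 0% of genes, and DESeq2 2 members (Hes1 and Hes6) and 8.92% of genes. At an unadjusted p under 0.05, edgeR gave 2 of 10 members (Hes6 and Hes1) and 20.4% of all genes. Libraries of the genotypes did not overlap for 3 of 10 members (Hes1 higher, Hes6 and Jag1 lower in ΔCdk8 cells), beside 23.1% of all genes tested. The members' share is thus near that of other genes, and the median log2 difference was -0.12 over members and 0.03 over all genes.

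Jag1, a Jagged ligand, was split by clone. Its TPM was 5.80, 5.33 and 5.50 in WT replicates 1, 2 and 3, and 1.65 and 5.21 in clones 8 and 11. The library labelled clone 15 was at 2.88 TPM. Clone 11 lay just under the WT range, and the other clones well below it. The log2 difference of -0.87 ± 0.45 (edgeR, adjusted p = 0.301) became -1.54 ± 0.29 (adjusted p = 0.0347) without clone 11, and -0.53 ± 0.37 (adjusted p = 0.573) without clone 8. Dll1, a Delta ligand, was at 2.25, 3.80 and 5.45 TPM in WT cells and at 2.71, 1.698 and 4.17 TPM in the clones, in the same order, with groups that overlap.

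Hey1, too, was split by clone. It was at 4.02, 2.21 and 2.54 TPM in WT replicates 1, 2 and 3, and 12.2 and 2.58 in clones 8 and 11. The library labelled clone 15 was at 7.37 TPM. Clone 11 lay within the WT range and the other clones above it (log2 difference 1.14 ± 0.54, edgeR adjusted p = 0.271). Without clone 8 the difference was 0.56 ± 0.51 (adjusted p = 0.648), and without clone 11, 1.51 ± 0.40 (adjusted p = 0.0578). Hey1 lies on chromosome 3, where the median gene was at 1.55 and 0.972 times its WT mean in clones 8 and 11, and 1.78 times in the library labelled clone 15. On most other autosomes these medians were 0.948 to 1.21, the exceptions being chromosome 14 (1.46 to 1.72 in all clones, with no member on it) and chromosome 6 (0.667 in clone 11). Relative to the chromosome median, Hey1 was at 2.69, 0.908 and 1.41 times WT. The part of the chromosome-wide level in its difference was not tested.

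The receptor Notch2 lies on chromosome 3 too. Clones 8 and 11 were at 10.4 and 5.92 TPM and the library labelled clone 15 at 11.8 TPM, and WT cells at 6.503, 7.90 and 10.8 TPM, so that the genotypes overlapped. Its ratios to the WT mean were 1.23, 0.705 and 1.41, each below the median of its chromosome in the same clone. Notch1 (7.47, 7.13 and 4.94 TPM in the clones, 5.89, 8.15 and 7.65 in WT cells) and Notch3 (8.82, 14.02 and 9.03 against 9.69, 9.52 and 14.1) overlapped as well.

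Rbpj TPM was 197, 108 and 95.2 in WT replicates 1, 2 and 3, and 300, 158 and 269 in clone 8, clone 11 and the library labelled clone 15. WT replicate 1 lay above clone 11, as it did in the trophoblast sum, and the log2 difference was 0.68 ± 0.31 (edgeR, adjusted p = 0.266). It was 1.06 ± 0.24 (adjusted p = 0.0662) without WT replicate 1, and 0.47 to 0.84 when any other library was left out. Nrarp was at 3.12, 1.35 and 2.76 TPM in WT cells and 4.68, 1.97 and 2.69 TPM in the clones, also with overlap.

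**Figure D2:**
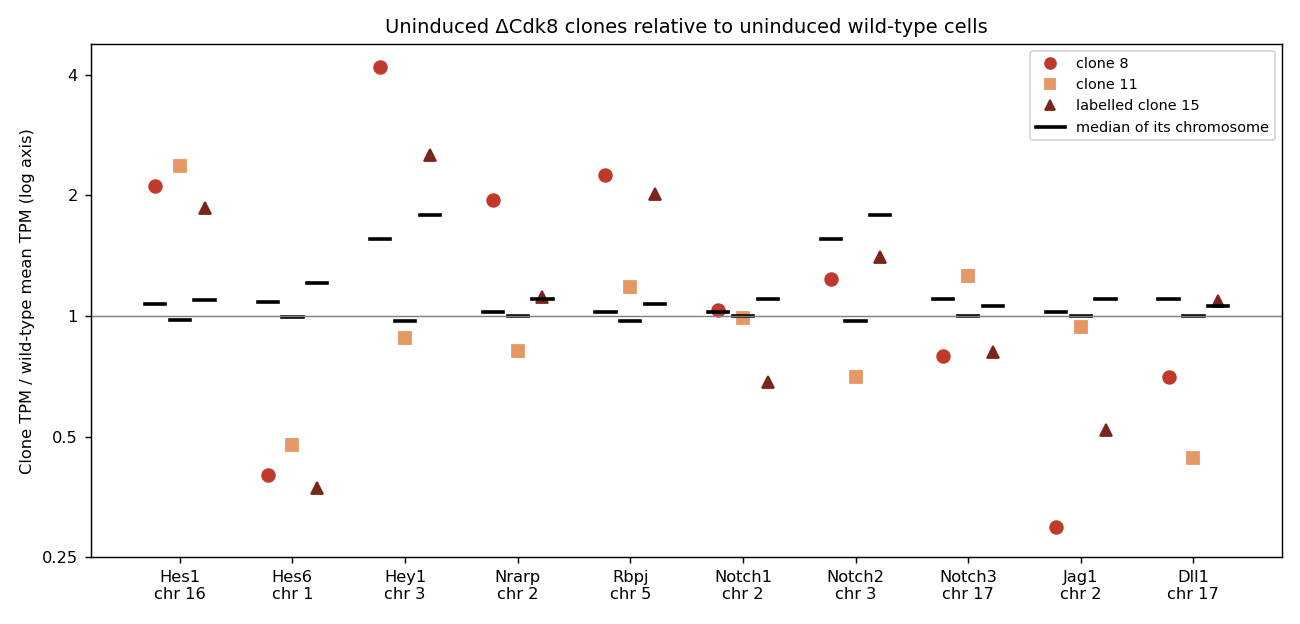
TPM of each member in the 3 uninduced ΔCdk8 libraries divided by the mean of the 3 uninduced WT libraries (log axis), with the chromosome under each gene name. Black bars are the median ratio of the genes on that chromosome with a WT mean of at least 1 TPM. Hes1 sat above and Hes6 below both 1 and the chromosome median in all 3 clones, whereas Hey1, Jag1 and Rbpj were nearer to 1 in clone 11 than in the other clones.

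After 48 h of Xist expression, the ligands Dll1 and Jag1 and Hes6 lay lower in every ΔCdk8 library than in every WT library. Dll1 was at 3.05, 3.04 and 6.96 TPM in WT replicates 1, 2 and 3 and at 1.55, 1.44 and 2.11 TPM in clone 8, clone 11 and the library labelled clone 15. All clones lay under all WT libraries. The log2 difference was -1.52 ± 0.42 (edgeR, adjusted p = 0.0901), and DESeq2 gave an adjusted p of 0.00674, past the threshold. In 1 edgeR fit to all 12 libraries the adjusted p was 0.0499, and without WT replicate 3 the difference was -1.01 ± 0.41 (adjusted p = 0.355).

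Jag1 was at 7.56, 6.29 and 6.97 TPM in induced WT cells and at 1.52, 4.54 and 2.80 TPM in the clones, with no overlap and clone 11 nearest to WT. The log2 difference was -1.32 ± 0.43, with an adjusted p of 0.117 in edgeR and 0.0209 in DESeq2. Hes6 was at 27.5, 36.8 and 43.9 TPM in WT cells and at 15.5, 23.9 and 17.4 TPM in the clones. It did not overlap either, with a log2 difference of -1.08 ± 0.33 and adjusted p-values of 0.109 and 0.0175 in the same tests. Without clone 11, Jag1 was at -1.90 ± 0.31 (edgeR adjusted p = 0.0177) and Hes6 at -1.39 ± 0.30 (adjusted p = 0.0299).

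Hes1 stayed higher in the clones, at 26.7, 40.2 and 25.2 TPM against 15.5, 22.3 and 14.2 TPM in WT cells. The groups did not overlap, but the log2 difference of 0.69 ± 0.34 did not pass in edgeR (adjusted p = 0.232) or DESeq2 (adjusted p = 0.181), and was 0.35 ± 0.29 (adjusted p = 0.403) without clone 11. Notch3 was at 6.91, 19.1 and 6.91 TPM in clone 8, clone 11 and the library labelled clone 15, and at 21.1, 17.6 and 28.1 TPM in WT cells. Clone 11 lay within the WT range and the others below it (log2 difference -1.14 ± 0.46, edgeR adjusted p = 0.174). Without clone 11 the Notch3 difference was -1.92 ± 0.25 (adjusted p = 0.0145), and without the library labelled clone 15 it was -0.84 ± 0.47 (adjusted p = 0.364).

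In this comparison edgeR called 0 of 10 members and 0% of 14143 genes at the threshold, and DESeq2 called 1 member (Dll1) and 5.81% of genes. At an adjusted p under 0.05, edgeR gave 0 members and 0.0283% of genes, and DESeq2 3 members (Dll1, Hes6 and Jag1) and 15.4% of genes. Without clone 11, edgeR gave 4 members (Hes6, Hey1, Jag1 and Notch3) and 17.6% of genes. At an unadjusted p under 0.05, edgeR gave 4 of 10 members (Dll1, Hes6, Jag1 and Notch3, all lower in ΔCdk8 cells) and 25.9% of genes. The libraries did not overlap for 4 members (Hes1, Hes6, Jag1 and Dll1), beside 28.7% of genes. The median log2 difference was -0.54 over members and 0.03 over all genes. The remaining members, Hey1, Nrarp, Notch1, Notch2 and Rbpj, had edgeR adjusted p-values of 0.218 to 0.804.

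In WT cells after 48 h of Xist expression, 6 of 10 members passed an adjusted p under 0.05 in the fit that pairs libraries of the same number, as did 23.0% of 14006 genes, but 1 member, Notch3, passed without WT replicate 2 or without WT replicate 3. Notch3 TPM went from 9.69 to 21.1 in replicate 1, from 9.52 to 17.6 in replicate 2 and from 14.1 to 28.1 in replicate 3. Each pair rose about to the same extent, by 2.18, 1.84 and 1.99 times, and induced and uninduced libraries did not overlap. The log2 fold change was 1.02 ± 0.07 in edgeR with the replicate number as a block (adjusted p = 0.00119), and Notch3 was the only member past the threshold. When any WT pair was left out it was not past it, at 0.95 and 0.98 without WT replicates 1 and 3, just under 2-fold, and with an adjusted p of 0.0194 without WT replicate 2. Without the block it was 1.02 ± 0.23 (adjusted p = 0.0587), and DESeq2 without a block also passed it (adjusted p = 0.00168). Intron reads of Notch3, which can come from its unspliced RNA or from the antisense gene, were 2.76, 1.66 and 3.13 per 1000000 gene reads in uninduced and 6.42, 3.02 and 4.74 in induced WT libraries, higher in each pair.

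Hes1 rose within each WT pair, by 1.64, 1.53 and 1.33 times in replicates 1, 2 and 3. With the block, its log2 fold change was 0.58 ± 0.13 (adjusted p = 0.0308), which passes a looser rule of an adjusted p under 0.05 with no minimum fold change. Nrarp, whose protein curbs the pathway, rose by 1.88, 2.96 and 1.46 times (1.00 ± 0.26, adjusted p = 0.0417). Hes6 fell in each pair, to 0.698, 0.706 and 0.608 of its uninduced TPM (-0.56 ± 0.09, adjusted p = 0.0124).

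Notch1 rose by 1.29, 1.39 and 1.74 times (0.58 ± 0.13, adjusted p = 0.0260) and Rbpj by 1.20, 1.40 and 1.58 times (0.50 ± 0.11, adjusted p = 0.0270). Jag1 was 1.30, 1.18 and 1.27 times its uninduced level, with an adjusted p of 0.0634. Dll1, Hey1 and Notch2 moved in both directions among the pairs and had blocked adjusted p-values of 0.530 to 0.727. The pluripotency genes Esrrb, Sox2 and Zfp42 were likewise at higher TPM in every induced than in every uninduced WT library. Tdgf1 went the other way, at 616 to 960 TPM in uninduced and 347 to 397 TPM in induced WT libraries. The other pluripotency markers overlapped. The sum of 8 primitive endoderm markers was at 10.1 to 14.1 TPM in uninduced and 16.9 to 23.2 TPM in induced WT cells. Within that list Lama1 alone did not overlap, at 3.80 to 7.96 and 11.2 to 13.8 TPM. Among the rest, the median of Dab2 went from 3.33 to 1.99 TPM and that of Sox7 from 1.88 to 2.75 TPM. The part of these markers was not tested.

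Of the 6 members that passed the looser rule with the block, 5 were higher and Hes6 lower. The count was 7 without WT replicate 1, where 43.7% of all genes passed, and 0 without the block, where 4.56% did. In the fits without WT replicate 2 and without WT replicate 3, where Notch3 alone of the members passed, 4.40% and 8.67% of genes did. At the threshold the block called 1 of 10 members and 3.95% of genes, and the fit without it 0 members and 1.16% of genes. At an unadjusted p under 0.05, the fit without the block gave 4 of 10 members (Notch3, Nrarp, Jag1 and Notch1) and 21.2% of genes. DESeq2 called Notch3 and 4.73% of genes at the threshold, and Notch3 and 13.1% of genes at an adjusted p under 0.05. In TPM, 7 members moved the same way in all 3 WT pairs, against 57.5% of genes tested. The median blocked log2 fold change was 0.43 over members and 0.03 over all genes.

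**Figure D3:**
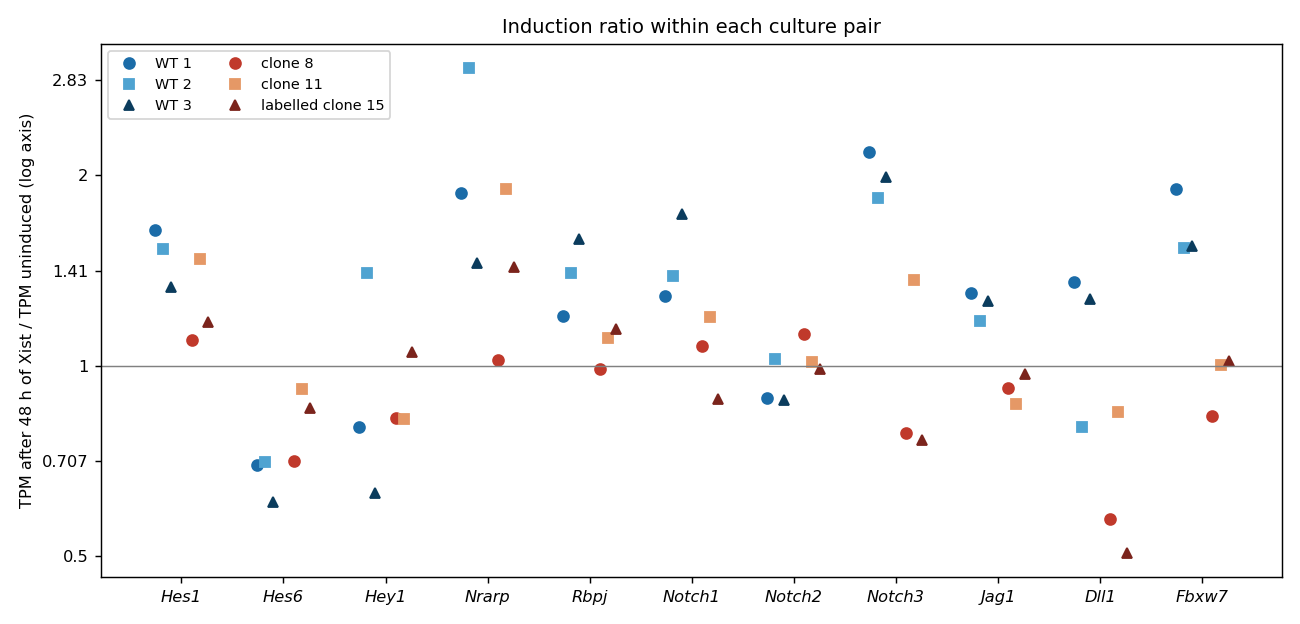
TPM after 48 h of Xist expression divided by TPM of the uninduced library of the same WT number or clone (log axis, 1 means no change), for the 10 members and Fbxw7. Each point is 1 pair. For Notch3 the WT pairs lay at 1.84 to 2.18 and the ΔCdk8 pairs at 0.765, 0.784 and 1.37, and for Jag1 all WT pairs lay above 1 and all ΔCdk8 pairs below it.

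In ΔCdk8 cells, 1 member passed the looser rule after induction. Dll1 fell from 2.71 to 1.55 TPM in clone 8, from 1.698 to 1.44 in clone 11 and from 4.17 to 2.11 in the libraries labelled clone 15. It was the only member to pass the looser rule with the clone as a block (-0.62 ± 0.20, adjusted p = 0.0476), and did not pass it without clone 8 (adjusted p = 0.359) or without the libraries labelled clone 15 (adjusted p = 0.229). Hes1 was 1.10, 1.48 and 1.17 times its uninduced level in clone 8, clone 11 and the libraries labelled clone 15 (0.34 ± 0.11, adjusted p = 0.0508), with 0.21 ± 0.14 (adjusted p = 0.420) without clone 11 and 0.37 ± 0.12 (adjusted p = 0.0482, where 12.6% of genes passed) without the libraries labelled clone 15. Notch3 was at 0.784, 1.37 and 0.765 times, with a log2 fold change of -0.05 ± 0.12.

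Hes6 was at 0.708, 0.918 and 0.859 times its uninduced TPM in the clones (adjusted p = 0.203), and Nrarp at 1.02, 1.91 and 1.44 times (adjusted p = 0.128). At the threshold, edgeR called 0 of 10 members with or without the block, beside 1.40% and 0% of 14832 genes. The looser rule gave 1 of 10 members and 11.8% of genes with the block, and no member and 0% of genes without it. At an unadjusted p under 0.05, the block gave 3 members and 24.8% of genes, and the fit without it 0 members and 2.64% of genes. DESeq2 called 0 members and 0.243% of genes at the threshold. In TPM, 5 members moved the same way in all 3 clones (Hes1 and Nrarp higher, Hes6, Jag1 and Dll1 lower), beside 43.5% of genes. The median blocked log2 fold change was 0.01 over members and 0.01 over all genes.

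The difference in induction between genotypes was the interaction term of a fit to the 12 libraries. Notch3 had a log2 difference of -1.05 ± 0.20 with the block (adjusted p = 0.0151), and was the only member to pass the looser rule, which 6.01% of 15137 genes passed. Without clone 8 its adjusted p was 0.0848, and without the libraries labelled clone 15, 0.0828, so that 0 members passed in either case. The share of all genes in these fits was 1.31% and 1.73%. Without WT replicate 1, 3 members passed (Notch3, Notch1 and Rbpj), and so did 17.4% of genes. No member passed the threshold with or without the block, beside 0.998% and 0% of genes, or in DESeq2, which called 0.218%. At an unadjusted p under 0.05 there were 5 members and 22.7% of genes with the block, and 0 members and 3.88% of genes without it.

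The other members had blocked adjusted p-values of 0.131 to 0.962 for this interaction. Dll1 (-0.78 ± 0.27), Nrarp (-0.48 ± 0.34), Notch1 (-0.46 ± 0.17), Jag1 (-0.40 ± 0.16) and Rbpj (-0.35 ± 0.13) had negative differences, meaning a lower induced level relative to uninduced cells in ΔCdk8 than in WT cells, and Hes6 (0.33 ± 0.15), Notch2 (0.17 ± 0.12) and Hey1 (0.037 ± 0.31) positive ones. Leaving out a pair moved Nrarp from -0.69 (without WT replicate 3) to -0.25 (without WT replicate 2), and without WT replicate 3 Notch1 was at -0.30 and Rbpj at -0.22. Over left-out pairs Notch2 ranged from 0.065 to 0.22 and Hes1 from -0.34 to -0.17. For Hes1 the difference was -0.22 ± 0.17 (adjusted p = 0.469), so that a different response of Hes1 was not detected. The median was -0.37 over members and -0.00044 over all genes.

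Of 60 other Notch pathway genes, 55 were tested between genotypes in uninduced conditions. None passed the threshold in edgeR, DESeq2 called 1 of them (Dtx1), and 10 had an unadjusted p under 0.05 (7 higher and 3 lower in ΔCdk8 cells), 18.2% beside the 20.4% of all genes. Their median log2 difference was 0.04, and 0.03 over all genes. Among those higher were the receptor Notch4, at 1.95, 1.17 and 0.544 TPM in WT cells and 5.48, 4.63 and 2.14 TPM in the clones (1.61 ± 0.56, adjusted p = 0.196), and the gamma-secretase subunit Aph1c (1.86 ± 0.76), the ligand-like Dner (1.40 ± 0.57) and the ubiquitin ligases Neurl1a (0.89 ± 0.25) and Mib2 (0.72 ± 0.28). Lower were the coactivator Maml2 (-1.69 ± 0.54), the ubiquitin ligase Dtx1 (-1.32 ± 0.31, adjusted p = 0.134) and the corepressor Ctbp1 (-0.72 ± 0.27). Dtx1 was at 8.96, 18.8 and 17.5 TPM in WT replicates 1, 2 and 3 and at 6.09 to 7.19 TPM in the clones, so that WT replicate 1 lay closest to them.

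With induction of WT cells, 12 of 54 pathway genes tested passed the looser rule with the block (7 higher and 5 lower), 22.2% and so near the 23.0% of all genes, with a median log2 fold change of 0.03. Fbxw7, which targets the Notch intracellular domain for degradation, rose from 16.5, 14.9 and 16.4 TPM to 31.4, 22.9 and 25.4 TPM in WT replicates 1, 2 and 3 (0.76 ± 0.08, adjusted p = 0.00359). In clone 8, clone 11 and the libraries labelled clone 15 it went from 21.7, 20.2 and 28.5 TPM to 18.1, 20.3 and 29.1 TPM (-0.02 ± 0.08). Before induction Fbxw7 was thus higher in all clones than in every WT library. It lies on chromosome 3, where the uninduced median gene was at 1.55, 0.972 and 1.78 times its WT mean, in the same order. The part of the chromosome-wide level was not tested. The interaction of Fbxw7 was -0.76 ± 0.11 (adjusted p = 0.00566). With the block, the interaction also passed the looser rule when any pair was left out (adjusted p = 0.00109 to 0.0403), but not without the block (edgeR adjusted p = 0.688) or in DESeq2 (adjusted p = 0.185). At the threshold, 3 pathway genes (5.56%, beside 3.95% of all genes) fell in WT cells, named here after their values were seen: Med12, an X-linked Mediator kinase subunit (-1.68 ± 0.09), Dlk1, a non-canonical ligand (-1.40 ± 0.20), and Furin, the protease that cleaves the Notch precursor (-1.23 ± 0.16). All 3 also passed the looser rule for the interaction, among 8 of 56 pathway genes (14.3%, beside 6.01% of all genes). Without the block, the looser rule gave 4 of 54 pathway genes in WT cells (7.41%, beside 4.56% of all genes) and 0 of 56 for the interaction (0% of all genes), where DESeq2 gave 1, Med12. In ΔCdk8 cells, 4 of 54 passed it (7.41%, under the 11.8% of all genes): Mib2 and Poglut1 rose, and Maml1 and Med12 fell, Poglut1 and Maml1 being named after their values were seen. Without the block 0 of 54 passed, as did 0% of all genes. Cdk8 did not pass it in either genotype when tested on gene reads, of which 70.4% to 96.4% were intronic. Its exon TPM was lower in every induced WT library, at 51.6, 51.5 and 53.1 in replicates 1, 2 and 3 (0.803, 0.741 and 0.716 of the uninduced level), and in induced clones 8 and 11 and the library labelled clone 15 it was 0.971, 1.02 and 0.995 of it.

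**Figure D4:**
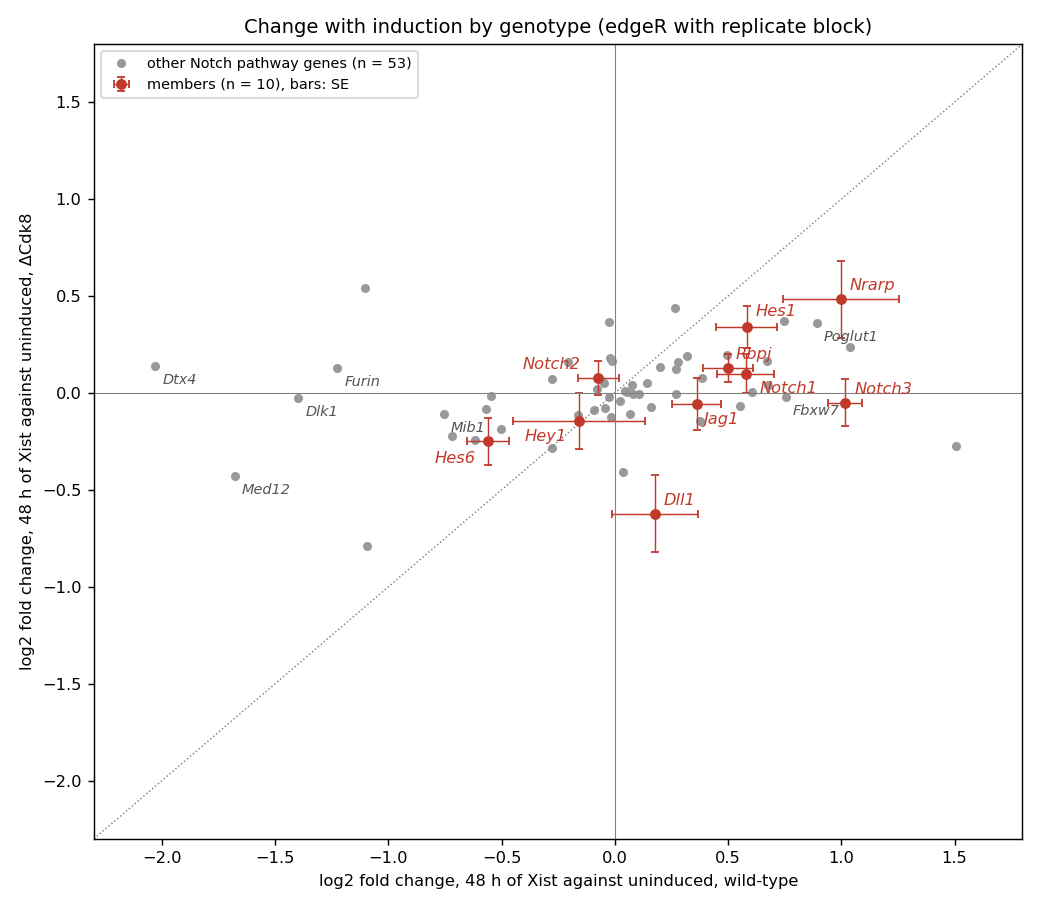
Blocked log2 fold change with 48 h of Xist expression in WT cells (horizontal) and ΔCdk8 cells (vertical) for the members (red, bars are SE) and 53 other pathway genes tested in both (grey). The dotted line marks equal change. Notch3 and Fbxw7 lie to the right near 0 on the vertical axis, Hes1 and Nrarp are above 0 on both axes, and Dll1 is the lowest member on the vertical axis.

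Among 9596 genes with a mean of at least 5 TPM, those with the profile nearest to Hes1 over the 12 libraries were Hap1, Fam160b2, Ralb, Lrch1 and Echdc2. The root mean square difference of their centred log2(TPM + 1) values from Hes1 was 0.198 for Hap1 and 0.266 for Echdc2, the fifth. Hap1 was at 15.4 to 18.8 TPM in uninduced and 25.1 to 34.8 TPM in induced WT cells, and at 30.9 to 41.0 and 31.7 to 54.8 TPM in ΔCdk8 cells. Fam160b2 and Lrch1 lie on chromosome 14, whose median was raised in all clones. No member was among these nearest genes: of 9596, Rbpj ranked 3344th, Notch2 5667th, Notch1 6355th, Notch3 8549th and Hes6 9278th. The other members were below the minimum TPM.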

How the data were processed

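PolyA RNA of 12 libraries (TruSeq stranded kit, 1 group label and replicate or clone number per library from the titles) was analysed. Reads were mapped by the authors with CLC Genomics Workbench to Ensembl GRCm38, adapters left on, and each library has its own table. The counts in it are the authors' unscaled numbers of reads on genes, exons, introns and junctions. The TPM values the authors deposited were used for levels. The RPKM values and the fraction columns the authors deposited were not used.

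Total gene reads were tested in R 4.3.3 with edgeR 4.0.16 (TMM scaling, filterByExpr at 10 reads and 15 in total, two-sided quasi-likelihood test, p adjusted by Benjamini-Hochberg over all genes tested). The threshold asked for more than 2-fold at an adjusted p under 0.01. The standard error is the log2 fold change over the square root of F. Alternatives were DESeq2 1.42.0, its size factors in edgeR, TMM over autosomal genes, other filters, unique reads, exon reads, a single fit to 12 libraries, a block for the replicate number, and leaving out each library. Scripts were tested on simulated data. TPM summaries used Python 3.11.15 with pandas 2.3.3 and numpy 2.4.6, and figures matplotlib 3.10.9.

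Clone numbers pair libraries of the same clone. For WT numbers, deviations from the group means correlated at 0.583 to 0.692 between libraries of the same number (clones 0.858 to 0.915) and at -0.655 to 0.412 between different WT numbers, so all numbers were taken as pairs. Nothing says that WT replicates were separate cultures, so p-values measure the spread between these samples. The members and gene lists were chosen with earlier results of these data known. All members were named, and of 60 other pathway genes Hes5, Fbxw7, Cdk8 and up to 5 that differed most each way with an unadjusted edgeR p under 0.05 between uninduced genotypes. For Hes1, the 5 genes nearest in profile were named. Med12, Dlk1, Furin, Poglut1 and Maml1, the pathway genes labelled in a figure beyond the rule, and single marker genes were named after their values were seen. Counting noise limits the precision of Nrarp, Hey1 and Dll1 most.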

Additional observations from a re-analysis of the deposited data

Results flagged for a closer look

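4 genes were singled out. For 2, the difference in induction between genotypes passed an adjusted p under 0.05 with the replicate block. For the other 2, all WT pairs moved one way and all clones the other, with a difference that did not pass. They are not the full set from the pathway list, where 8 of 56 genes passed the blocked interaction (6.01% of all genes did). Rfng, Ep300 and Dtx4 also moved oppositely in all pairs. The share of all genes that did so was not counted. For Notch3 the log2 difference in induction, ΔCdk8 minus WT, was -1.05 ± 0.20 (edgeR with the replicate block, adjusted p = 0.0151). For Fbxw7 it was -0.76 ± 0.11 (adjusted p = 0.00566). Neither passed without the block (adjusted p = 0.9999 for Notch3 and 0.688 for Fbxw7). For Jag1, all 3 WT pairs were higher after induction and all 3 clones lower, with a difference of -0.40 ± 0.16 that did not pass (adjusted p = 0.169). For Hes5, all WT pairs were lower and all clones higher, with a difference of 1.97 ± 0.81 (adjusted p = 0.188), on 1 to 29 reads per library.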

How the results depend on the processing

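DESeq2 called 1 member at the threshold in each genotype comparison (Hes6 uninduced, Dll1 induced) and in WT induction (Notch3), where edgeR without a block called 0. The replicate block gave 1 member at the threshold in WT cells, and 0 when any WT pair was left out with the block (8.13%, 0.306% and 2.64% of all genes without WT replicates 1, 2 and 3), since the fold change then lay just under 2 or the adjusted p above 0.01. For the blocked interaction, leaving out pairs gave 0 to 1 members at the threshold, beside 0.0329% to 3.84% of all genes. By the looser rule, the blocked count of 6 in WT cells became 0 without the block and 1 to 7 when a pair was left out, the blocked count of 1 in ΔCdk8 cells 0 and 0 to 1, and that of 1 for the interaction 0 and 0 to 3. Left-out pairs with the block were added after seeing the data. By the looser rule, DESeq2 gave 2 members between uninduced (8.92% of all genes) and 3 between induced genotypes (15.4%), where edgeR gave 0 members (0% and 0.0283%), and 1 (Notch3) in WT induction (13.1%). The other alternatives without a block kept the counts at the threshold.

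Between genotypes, leaving out 1 library turned the sign of Nrarp (-0.20 to 0.42, uninduced) and Notch2 (-0.17 to 0.18 uninduced, -0.072 to 0.33 induced). With the block, leaving out a pair turned Hey1 (-0.49 to 0.054) in WT cells, Notch2 (-0.0035 to 0.11, without clone 8) and Notch3 (-0.34 to 0.076, above 0 without clone 8 and, at 0.069, without the libraries labelled clone 15) in ΔCdk8 cells, and Hey1 (-0.18 to 0.32, at -0.050 without WT replicate 1 and -0.077 without the libraries labelled clone 15) in the interaction. No other member changed sign under any alternative run for it. The genotype comparisons share no replicate numbers, so no block could be fitted there. Read depth limits Nrarp, Hey1 and Dll1, with 49 to 680 gene reads per library.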
